A study of Mus musculus with 34 samples.

Results

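The genes described here encode 10 subunits of the BAF chromatin remodeller, and they were chosen by name, with earlier results of these data known. They are Smarca4, Smarcc1, Smarcd1 and Arid1a, whose products make up the assembly known from embryonic stem (ES) cells, Smarcb1, which is shared between assemblies, and the alternative paralogues Smarca2, Smarcc2, Smarcd2, Smarcd3 and Arid1b. All 10 were found among the 48709 genes of the Mta123KO and Control files and among the 22018 genes of the single-mutant files. RNA-seq counts came from 34 libraries of mouse ES cells of strain 129/Ola, and the question put to them was whether loss of MTA proteins, subunits of the NuRD complex, or the change of medium moved the genes of another remodeller.

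BAF complexes, the mammalian SWI/SNF remodellers, use the energy of ATP to slide or evict nucleosomes and tend to open chromatin, whereas NuRD joins a different remodelling ATPase to histone deacetylases. Many BAF positions can be filled by either of several paralogous proteins, and the choice of paralogue changes as cells differentiate. The ES cell form is known for the ATPase Brg1 (the product of Smarca4), for BAF155 (Smarcc1) and for Arid1a, while Brm (Smarca2), BAF170 (Smarcc2) and BAF60C (Smarcd3) are better known from differentiated tissues such as brain, muscle and heart.

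The Mta1 and Mta3 single mutants were Cre-deleted lines (Mta1_del/del and Mta3_del/del) with their own flox/flox parents, and Mta2_KO cells were set against Mta2_WT cells, with 3 libraries a group, all labelled 2i+LIF, the medium with 2 kinase inhibitors and the cytokine LIF (2iL). Mta123KO cells carry deletions in all 3 MTA genes. According to the study's methods, the remaining Mta2 gene was targeted with CRISPR guides in ES cells with deleted Mta1 and floxed Mta3, and Mta3 was then deleted with Cre, so that these lines were cloned separately from those of the single mutants. Their Control was labelled only as such, and the study describes it as derived alongside the mutants' parent. Control and Mta123KO had 4 libraries each labelled 2i+LIF and 4 each labelled 48 h in N2B27 without inhibitors or LIF, numbered 1_1, 1_2, 2_1 and 2_2, of which the first digit is read here as the line. There were thus at most 2 lines per genotype, and p-values over libraries measure in part the spread between libraries of the same line. Libraries summed to between 37855790 and 57602285 gene counts in this set and to between 13105820 and 40613585 in the single-mutant set, and the smallest count of any of the 10 genes in any library was 34, for Smarcd3.

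The culture labels went against the cells' own markers. In Control, 6 naive pluripotency genes (Nanog, Esrrb, Klf4, Zfp42, Tfcp2l1 and Tbx3) summed to 147 to 231 CPM (counts scaled to the same library total) in the libraries labelled 2iL and to 3569 to 3924 CPM in those labelled 48 h, while 4 epiblast genes (Fgf5, Otx2, Pou3f1 and Dnmt3b) summed to 751 to 1291 CPM in the former and to 73.4 to 84.6 CPM in the latter. In the single-mutant parents, labelled 2iL and normalised separately, these lists summed to 3028 to 5610 CPM and to 58.8 to 108 CPM. In Control, all 6 naive genes were higher, and all 4 epiblast genes lower, in the libraries labelled 48 h. The deposited file names of these 16 libraries give the opposite culture from the sample labels. Cultures are therefore named as labelled throughout, and exchanging the labels would turn the sign of every culture difference and exchange the 2 comparisons of Mta123KO with Control. The mutated genes followed the genotype labels. Mta2 counted 4.71 to 9.00 CPM in Mta123KO and 111 to 129 CPM in Control among libraries labelled 2iL, and 9.23 to 11.9 CPM in Mta2_KO and 231 to 247 CPM in Mta2_WT. Among libraries labelled 2iL, Mta3 counted 14 to 23.8 CPM in Mta123KO against 57.3 to 74.9 CPM in Control, and Mta1 19.4 to 30.0 CPM against 34.8 to 48.6 CPM. Under the 48 h label the means of lines 1 and 2 were closer for Mta1, at 24.0 and 33.1 CPM in Control and 19.7 and 15.9 CPM in Mta123KO. Those of Mta3 were 41.9 and 39.6 CPM in Control and 20.0 and 9.92 CPM in Mta123KO. Mta3 counted 9.65 to 12.8 CPM in Mta3_del and 60.6 to 70.4 CPM in Mta3_flox. Mta1 counted 38.5 to 48.0 CPM in Mta1_del and 69.0 to 105 CPM in Mta1_flox, groups that did not overlap although the difference did not pass the test (adjusted p = 1.0).

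The sequences before the starts of 3 member genes are shown because Smarca4 and Smarca2 encode the interchangeable ATPases, and Smarca2 and Arid1a were the members that rose and fell in Mta123KO under both culture labels even when the libraries of a line were summed. In the annotation of GRCm38, Smarca4 (ENSMUSG00000032187) spans chromosome 9 from 21616169 to 21704230 on the plus strand, Smarca2 (ENSMUSG00000024921) chromosome 19 from 26605050 to 26778322 on the plus strand and Arid1a (ENSMUSG00000007880) chromosome 4 from 133679008 to 133756769 on the minus strand. The sequences are from RefSeq on GRCm38.p6, read 5′ to 3′ on the gene's strand and cut before the first annotated start of the gene, with CpG dinucleotides, the site of DNA methylation, in capitals.
Smarca4, chr9:21615919-21616168, plus strand: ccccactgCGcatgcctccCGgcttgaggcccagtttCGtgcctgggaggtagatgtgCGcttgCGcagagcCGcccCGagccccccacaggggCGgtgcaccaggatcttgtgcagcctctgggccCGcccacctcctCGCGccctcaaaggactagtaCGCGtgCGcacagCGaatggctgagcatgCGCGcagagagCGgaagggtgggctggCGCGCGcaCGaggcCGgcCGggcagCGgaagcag
Smarca2, chr19:26604910-26605049, plus strand: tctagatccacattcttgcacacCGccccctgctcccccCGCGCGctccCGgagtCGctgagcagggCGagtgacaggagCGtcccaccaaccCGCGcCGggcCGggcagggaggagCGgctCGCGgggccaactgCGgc
Arid1a, chr4:133756770-133757019, minus strand: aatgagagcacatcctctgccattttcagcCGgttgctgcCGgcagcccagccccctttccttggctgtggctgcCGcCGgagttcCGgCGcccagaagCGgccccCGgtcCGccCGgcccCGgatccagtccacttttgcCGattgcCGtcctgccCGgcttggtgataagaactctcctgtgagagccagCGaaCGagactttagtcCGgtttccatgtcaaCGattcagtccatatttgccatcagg
RefSeq gave 11 promoter windows of 300 bases for the 10 genes. The window of Smarca4 held 33 CpG and that of Smarca2 held 29, against a median of 7 over all 32851 windows. Among the members the count ran from 4, in the window of Smarcd2, which lies 5340 bases inside that gene, to 48 in Smarcc2. Other windows also had starts inside their genes, by 22409 bases for Smarcd3, 14316 for Smarcc1, 2784 for a second window of Arid1a and 742 for Arid1b. The GC box letters GGGCGG stood on either strand in all 11 windows and in 35.7% of all windows, and TGANTCA, which holds the AP-1 site, in 2 (Smarca2 and Smarcb1) and in 7.81% of all. The letters CCAAT were in none of the 11 and in 37.4% of all windows, and TATAAA was in 1 (Smarcd2) and in 13.6% of all. These are matches of letters only. The palindromic NRF1 core and the E-box letters CACGTG were in none of the 11, and in 0.971% and 7.15% of all windows. The motifs were chosen after the sequences had been seen.

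Among the libraries labelled 2iL, the level per kilobase of exon (RPKM over the union of exons) ran in Control from Smarca4, at 49.7 ± 1.87 (SD, n = 4), through Smarcd1 (25.6 ± 1.25), Smarcc1 (21.8 ± 0.927) and Arid1a (17.5 ± 0.700), all ES cell subunits. Smarcd2 (10.04 ± 0.252) and Smarcb1 (9.91 ± 0.228) followed with ranges that overlapped. Below them were Smarcc2 (7.40 ± 0.345), Arid1b (3.67 ± 0.211), Smarcd3 (1.42 ± 0.149) and Smarca2 (0.253 ± 0.0211). In this group the 4 ES cell subunits thus stood above all 5 alternative ones, and every pair of neighbours except Smarcd2 and Smarcb1 had separate ranges. In Control labelled 48 h, Smarca2 was again lowest (1.23 ± 0.156 RPKM) and Smarca4 highest (42.3 ± 1.28 RPKM), but the ranges of Smarcd1 and Smarcc1, of Smarcd2 and Arid1a, and of Arid1b and Smarcd3 overlapped. The mean of Smarcd2 (13.7 RPKM) was there above that of Arid1a (11.9 RPKM). Among the single-mutant parents, Smarcd2 was above Arid1a in Mta2_WT (12.6 and 9.20 RPKM, overlapping) and Mta3_flox (24.6 and 15.9 RPKM). In Mta3_flox it was also above Smarcd1 (20.5 RPKM, overlapping). In Mta1_flox Arid1a was the higher (22.0 and 21.1 RPKM, overlapping). In Mta123KO labelled 2iL, Arid1b came last (1.31 ± 0.425 RPKM) and Smarca2 (4.22 ± 0.946 RPKM) overlapped Smarcd3, and under the 48 h label Arid1b was last as well (2.08 ± 0.780 RPKM). The level of Smarca2 depends on the length used, since its 46 annotated transcripts span 14269 bases of exon while the longest has 5921. With the longest transcript Smarca2 in Control labelled 2iL came to 0.610 RPKM and was still lowest, but in Mta123KO it came to 7.90 to 12.3 RPKM under the 2iL label, apart from Smarcd3 (3.25 to 5.47 RPKM), and to 12 to 16.1 RPKM under the 48 h label. Counts per gene do not tell its isoforms apart.

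**Figure D1:**
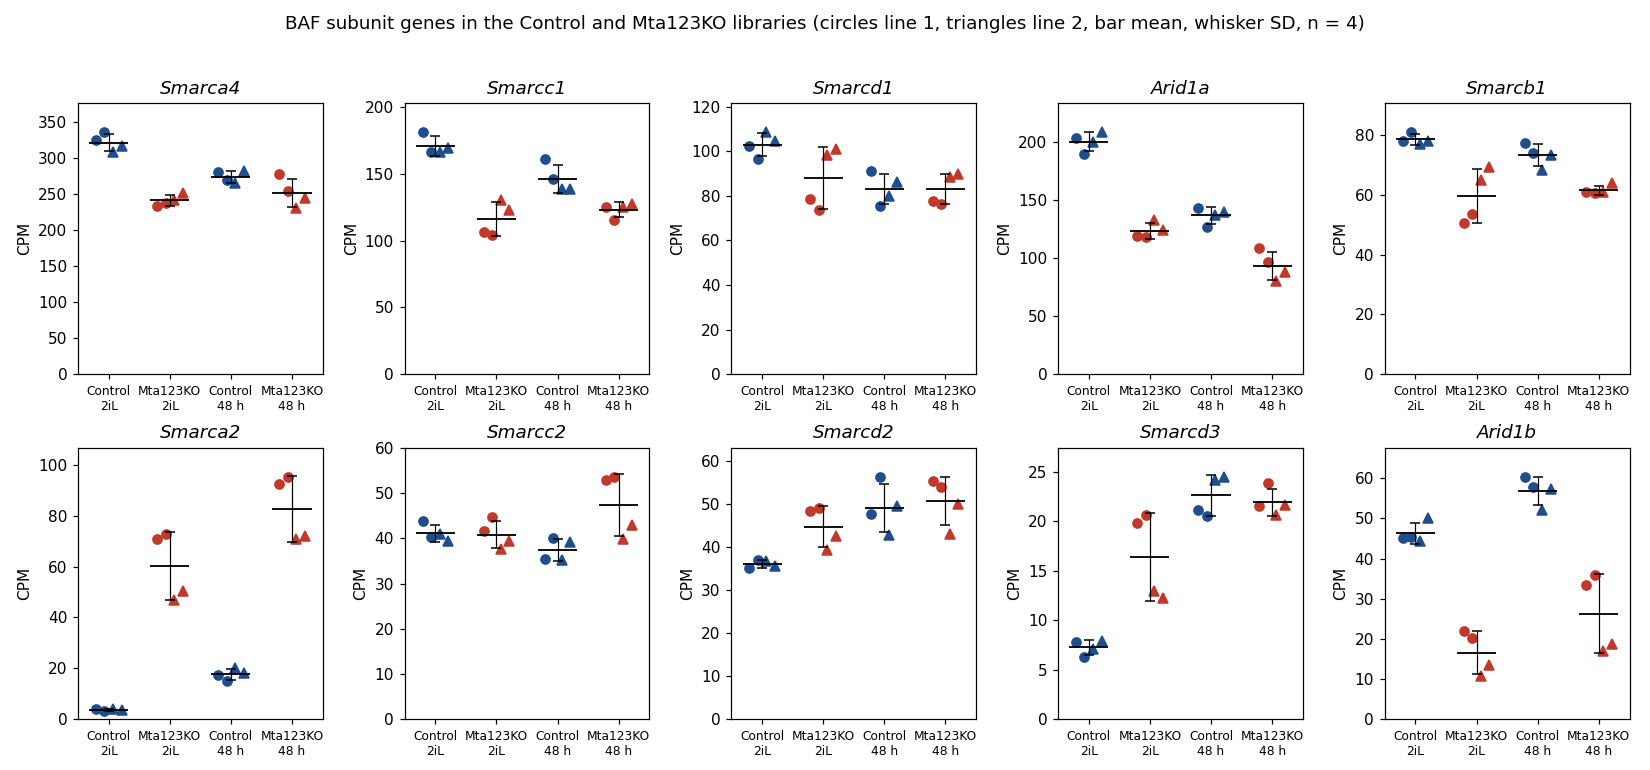
Level of each of the 10 genes in CPM (vertical axis, from 0) in the 4 groups of Control (blue) and Mta123KO (red) libraries, circles for line 1 and triangles for line 2, with the mean as a bar and the SD as a whisker (n = 4). Smarca2 lies at 3.18 to 3.85 CPM in Control labelled 2iL and at 46.7 to 72.7 CPM in Mta123KO, and the Mta123KO lines are apart for Arid1b.

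In the libraries labelled 2iL, Mta123KO cells had far more Smarca2 RNA than Control, more Smarcd3 and Smarcd2, and less Arid1b, Arid1a, Smarcc1, Smarca4 and Smarcb1. Of the 10 genes, 3 rose and 5 fell at an adjusted p under 0.05 from edgeR's quasi-likelihood test with Benjamini-Hochberg adjustment over all genes, the test behind every adjusted p that follows unless another is named. Over all 21651 genes tested 27.1% rose, 24.2% fell and 51.3% passed in either direction, and the groups did not overlap for 8 of the 10 members against 50.0% of all genes. The median log2 fold change of the members was -0.30 and that of all genes 0.0058.

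Smarca2, the alternative ATPase, counted 3.78, 3.18, 3.85 and 3.64 CPM in the Control libraries labelled 2iL and 71.0, 72.7, 46.7 and 50.6 CPM in Mta123KO. Every mutant library lay above every Control library, and line 1 of the mutant above line 2. The difference was 4.08 ± 0.17 (SE) on the log2 scale, or 16.9-fold (adjusted p = 1.31e-06). Smarca4, its counterpart in ES cells, counted 325, 337, 308 and 317 CPM in Control and 234, 238, 242 and 252 CPM in Mta123KO, and fell by 0.40 ± 0.05 on the log2 scale (adjusted p = 0.00035). No mutant library reached the lowest Control library. The RPKM of Smarca4 was 176 to 233 times that of Smarca2 in the Control libraries and 7.20 to 11.4 times in Mta123KO, and with the longest transcripts 74.3 to 98.4 and 3.03 to 4.81 times. The ES cell ATPase thus remained the more abundant RNA in every library. In bulk RNA, a larger share of cells with a transcript and more of it per cell cannot be told apart.

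Among the scaffold subunits, Smarcc1 counted 181, 166, 166 and 169 CPM in Control and 107, 104, 130 and 123 CPM in Mta123KO, and fell by 0.54 ± 0.08 on the log2 scale (adjusted p = 0.00063). Smarcc2, its paralogue, counted 39.4 to 43.8 CPM in Control and 37.7 to 44.6 CPM in the mutant, with a log2 difference of 0.01 ± 0.07 (adjusted p = 0.93). The ranges of Smarcc2 lay on top of each other, those of Smarcc1 were apart. Smarcb1, the shared core subunit and a tumour suppressor, counted 76.9 to 81.2 CPM in Control and 50.7, 53.5, 65.0 and 69.2 CPM in Mta123KO, and fell by 0.38 ± 0.10 on the log2 scale (adjusted p = 0.0115). Line 1 of the mutant was the lower for both Smarcc1 and Smarcb1.

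The SMARCD proteins link BAF to sequence-specific factors. Smarcd3, the form known from heart muscle, counted 7.81, 6.27, 7.06 and 7.91 CPM in Control and 19.8, 20.6, 12.9 and 12.3 CPM in Mta123KO, and rose by 1.19 ± 0.19 on the log2 scale (adjusted p = 0.000794). Smarcd2, known for its part in granulocyte formation, rose by 0.33 ± 0.08, from 35.0 to 36.9 CPM in Control to 39.2 to 49.0 CPM in the mutant (adjusted p = 0.00882). Smarcd1 had a log2 difference of -0.21 ± 0.11 (adjusted p = 0.131), and line 2 of the mutant (98.2 and 101 CPM) lay within the Control range of 96.6 to 109 CPM while line 1 (78.6 and 73.7 CPM) lay below it. For Smarcd3 the lines were also apart, but on the same side of Control. Chpf2, which overlaps Smarcd3 on the opposite strand, was at 12.2 to 15.4 CPM in Control and at 23.6 to 39.2 CPM in Mta123KO. The strand setting of the counting is not given in the sources used here, so that reads of the overlap could be shared. The same limit applies to Smarcc1 and Smarcd1, which overlap the protein-coding genes Dhx30 and Gm17349 on the opposite strand, and to Arid1b, which overlaps a pseudogene.

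Both ARID subunits, the large mutually exclusive DNA-binding proteins of the complex, were lower. Arid1b counted 45.2, 45.3, 44.4 and 50.2 CPM in Control and 21.8, 20.3, 10.7 and 13.5 CPM in Mta123KO, and fell by 1.47 ± 0.21 on the log2 scale (adjusted p = 0.000435), the largest decrease among the 10 genes. Arid1a counted 203, 189.8, 200.3 and 209 CPM in Control and 119, 119, 133 and 124 CPM in the mutant, and fell by 0.68 ± 0.06 (adjusted p = 3.86e-05). Mutant line 1 had 1.75 times the Arid1b level of line 2, while Arid1a was slightly lower in line 1 than in line 2. For both genes the mutant stayed below the lowest Control library.

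With the libraries of each line summed, which leaves 2 samples a group, 4 of the 10 genes passed in the libraries labelled 2iL (Smarca2, adjusted p = 0.014; Arid1a, 0.0264; Arid1b, 0.0372; Smarcd3, 0.0491), and Smarca4 (0.0619), Smarcc1 (0.0537), Smarcb1 (0.153) and Smarcd2 (0.164) did not. Over all genes, 3758 of 24467 passed with lines summed. Smarcb1 also missed the threshold without the libraries numbered 1_1 (log2 difference -0.31, adjusted p = 0.0525) or 1_2 (-0.32, 0.0695), Smarcd2 without those numbered 1_1 (0.27, 0.0663) and with spike-in scaling (0.36, 0.0592).

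Under the 48 h label, Mta123KO cells again had more Smarca2 and less Arid1b and Arid1a than Control, while the ranges of Smarcd3 overlapped. Of the 10 genes, 2 rose and 4 fell, against 26.6% and 23.4% of the 21079 genes tested and 50.0% in either direction. The groups did not overlap for 5 of the 10, against 48.4% of all genes, and the members' median log2 fold change was -0.074, with 0.0053 over all genes.

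Smarca2 counted 17.2, 14.9, 20.3 and 18.0 CPM in Control labelled 48 h and 92.4, 95.4, 70.9 and 72.1 CPM in Mta123KO, 2.24 ± 0.14 higher on the log2 scale (adjusted p = 4.68e-06). Arid1b counted 60.4, 57.8, 52.0 and 57.3 CPM in Control and 33.5, 35.8, 16.9 and 18.6 CPM in Mta123KO, and fell by 1.11 ± 0.24 (adjusted p = 0.00396). Neither gene's groups overlapped, and for both the mutant lines were apart, with line 1 the higher. Arid1a fell by 0.54 ± 0.09, from 127 to 144 CPM to 80.6 to 108 CPM (adjusted p = 0.00138).

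Smaller differences were seen in the scaffold. Smarcc1 fell by 0.24 ± 0.07 (adjusted p = 0.0171), from 139 to 161 CPM to 115 to 127 CPM, and Smarcb1 by 0.24 ± 0.06 (adjusted p = 0.0086), from 68.5 to 77.5 CPM to 60.5 to 63.9 CPM. Smarcc2 rose by 0.35 ± 0.11 (adjusted p = 0.0255), and its groups overlapped, at 35.3 to 40.0 CPM in Control and 39.9 to 53.7 CPM in Mta123KO. Smarcd3 was at 20.5 to 24.5 CPM in Control and 20.7 to 23.8 CPM in the mutant (adjusted p = 0.756), and neither Smarca4 (-0.11 ± 0.07, adjusted p = 0.205), Smarcd1 (0.01 ± 0.08, adjusted p = 0.953) nor Smarcd2 (0.05 ± 0.11, adjusted p = 0.71) passed.

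Of these 6 calls, those of Smarca2 (adjusted p = 0.0123) and Arid1a (0.0494) held with the libraries of a line summed, and that of Arid1b did not (0.0774). Over all genes, 4085 of 23899 passed in that fit. Smarcc1, Smarcb1 and Smarcc2 lost their calls when libraries of a line were summed (0.164, 0.151 and 0.181), with spike-in scaling (0.102, 0.10 and 0.513), without the libraries numbered 1_1 (0.0762, 0.0639 and 0.145) and without those numbered 1_2 (0.0821, 0.051 and 0.0793). Spike-in scaling moved the median of all genes by -0.18 on the log2 scale in this comparison. The share of ERCC spike-ins in all counts ran from 0.584 to 0.916% in Control and from 0.740 to 0.912% in Mta123KO. The part of this spread in the lost calls was not tested.

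**Figure D2:**
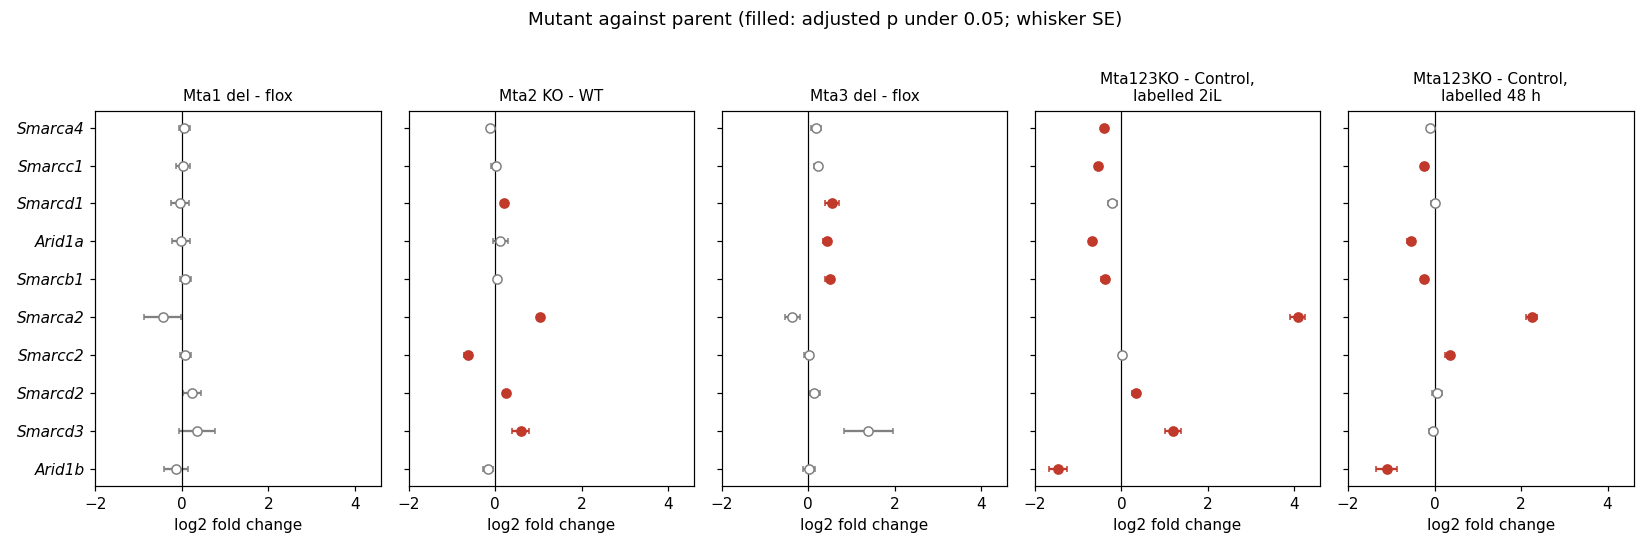
Log2 fold change (horizontal axis) of each of the 10 genes in each mutant against its parent or Control, with the SE as a whisker; filled points passed an adjusted p under 0.05. Smarca2 reaches 4.08 in Mta123KO labelled 2iL, 2.24 under the 48 h label and 1.04 in Mta2_KO, and lies below 0 without passing in the Mta1 and Mta3 mutants.

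Markers of other cell types moved with the genotype. Among libraries labelled 2iL, the naive genes summed to 391.9 to 530 CPM in Mta123KO against 147 to 231 CPM in Control, with 4 of 6 higher, and the epiblast genes to 229 to 309 CPM against 751 to 1291 CPM, with 3 of 4 lower and 1 higher. Under the 48 h label the naive genes summed to 1867 to 2757 CPM against 3569 to 3924 CPM, with 4 of 6 lower, and the epiblast genes to 77.4 to 110 CPM against 73.4 to 84.6 CPM, with 1 of the 3 tested higher. Pou5f1 and Sox2, general pluripotency genes, summed to 291 to 507 CPM against 517 to 582 CPM in libraries labelled 2iL (1 of 2 lower) and to 464 to 625 CPM against 734 to 812 CPM under the 48 h label (both lower). The 4 primitive endoderm genes Gata4, Gata6, Sox17 and Pdgfra stayed at or below 16.8 CPM in sum in every library of this set, with 2 lower under the 2iL label and 2 higher and 1 lower under the 48 h label. The 4 trophoblast genes Cdx2, Eomes, Gata3 and Krt8 summed to 7.40 to 9.56 CPM in Control labelled 2iL, and in Mta123KO to 178 and 199 CPM in line 1 and to 41.4 and 44.5 CPM in line 2, and all 4 rose. Under the 48 h label they summed to 12.6 to 17.9 CPM in Control, to 340 and 367 CPM in line 1 and to 77.7 and 81.2 CPM in line 2, and 2 of the 4 rose. The 4 muscle genes Myod1, Myog, Tnnt2 and Actc1 summed to at most 1.52 CPM in Control and to 2.11 to 17.5 CPM in Mta123KO, and all 3 of them that were tested rose under both labels. The part of such cells and states in the differences of the BAF genes was not tested. An antisense gene inside Smarca2, 4931403E22Rik, was also at 0.155 to 0.459 CPM in Control and at 2.84 to 3.97 CPM in Mta123KO labelled 2iL.

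Between the culture labels, the Control cells differed in the genes of both ATPases. In the libraries labelled 48 h, the alternative subunits Smarca2, Smarcd3, Smarcd2 and Arid1b were higher and the ES cell subunits Arid1a, Smarcd1, Smarca4 and Smarcc1 lower than in those labelled 2iL. That is 4 of the 10 genes higher and 4 lower, where 29.5% of 21240 genes were higher, 29.0% lower and 58.5% different in either direction. The groups did not overlap for 8 of the 10, against 54.0% of all genes, and the members' median was -0.10, with 0.0058 over all genes. All 8 calls stood with the replicate number as a block. With the labels exchanged, the 4 higher genes would be lower and the 4 lower genes higher.

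Smarca2 went from 3.18 to 3.85 CPM to 14.9 to 20.3 CPM, 2.30 ± 0.11 higher on the log2 scale (adjusted p = 3.51e-08). Smarcd3 went from 6.27 to 7.91 CPM to 20.5 to 24.5 CPM, 1.65 ± 0.10 higher (adjusted p = 1.32e-07). Smarcd2 was 0.46 ± 0.08 higher (adjusted p = 0.000415) and Arid1b 0.31 ± 0.07 higher (adjusted p = 0.00178).

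The ES cell subunits moved less. Arid1a was lower by 0.54 ± 0.06 (adjusted p = 1.1e-05), with 127 to 144 CPM against 189.8 to 209 CPM. Smarcd1 was lower by 0.29 ± 0.07 (adjusted p = 0.00361), Smarca4 by 0.22 ± 0.05 (adjusted p = 0.00279) and Smarcc1 by 0.21 ± 0.06 (adjusted p = 0.0134), each with separate groups. With the ERCC spike-ins as the scale, the median of all genes moved by 0.18 and none of these 4 decreases passed (Arid1a -0.35, adjusted p = 0.117, Smarcd1 -0.11, 0.675, Smarca4 -0.04, 0.888, Smarcc1 -0.02, 0.929), whereas the 4 increases did. The ERCC share of all counts varied between libraries of a group, from 0.584 to 0.916% in Control labelled 48 h. In Control labelled 2iL it ran from 0.791 to 0.821%. The part of this spread in the lost calls was not tested. Without the libraries numbered 2_2, Smarcc1 missed the threshold (-0.19, adjusted p = 0.0607), as it did with the libraries of a line summed (-0.20, 0.093), and Arid1b did in one fit of all 16 libraries (0.30, 0.315).

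In Mta123KO the same contrast gave 1 call among the 10 genes without a block, against 22.4% of 21505 genes in either direction. Arid1a was lower by 0.41 ± 0.10 in the libraries labelled 48 h (adjusted p = 0.0173), with 80.6 to 108 CPM against 119 to 133 CPM. This call was lost without the libraries numbered 1_2 (-0.45, adjusted p = 0.0689), 2_1 (-0.31, 0.081) or 2_2 (-0.38, 0.0994). The groups did not overlap for 2 of the 10 (Arid1a and Smarcd3), against 28.2% of all genes, and the members' median was 0.13, with 0.0034 over all genes.

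Libraries of the same number deviated together between the labels in this genotype (mean correlation 0.58), but so did libraries of the same line (0.58), and 2 of 4 matched their own number best. With the number as a block 6 of the 10 genes passed, against 9534 of all 23125 genes tested. Smarca2 (0.47, adjusted p = 0.000432), Arid1b (0.65, 0.000458), Smarcd3 (0.45, 0.0187), Smarcd2 (0.18, 0.0316) and Smarcc2 (0.21, 0.0407) were then higher and Arid1a (-0.41, 0.0112) lower in the libraries labelled 48 h, and 9534 genes passed in place of 4817. With the libraries of each line summed, 0 of 24445 genes passed by edgeR, 3568 of them at an unadjusted p under 0.05.

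**Figure D3:**
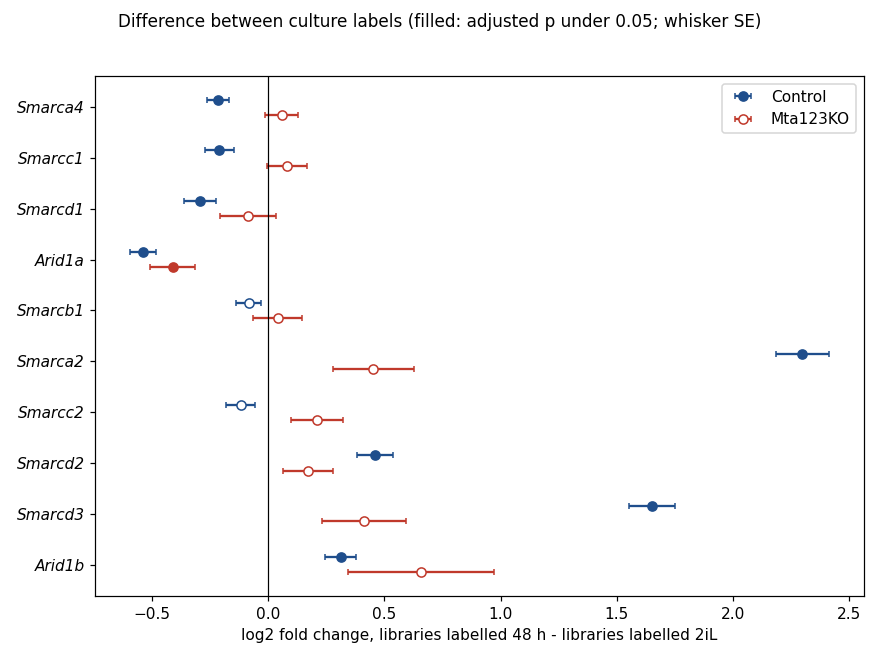
Log2 difference of the libraries labelled 48 h from those labelled 2iL (horizontal axis) for each of the 10 genes in Control (blue) and Mta123KO (red), with the SE as a whisker; filled points passed an adjusted p under 0.05. Smarca2 differs by 2.30 in Control and 0.45 in Mta123KO, Smarcd3 by 1.65 and 0.41.

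The difference between genotypes in this contrast was tested as an interaction over all 16 libraries. It passed for 4 of the 10 genes, 2 in each direction, while 12.5% of 22973 genes passed as positive, 10.6% as negative and 23.1% in either direction. Smarca2 had an interaction of -1.83 ± 0.22 (adjusted p = 2.34e-05) and Smarcd3 of -1.22 ± 0.21 (adjusted p = 0.000726), so that both differed less between culture labels in Mta123KO than in Control. Smarca4 (0.29 ± 0.08, adjusted p = 0.0167) and Smarcc1 (0.31 ± 0.11, adjusted p = 0.0463) had positive interactions. Both were lower under the 48 h label in Control, and neither passed between labels in Mta123KO. With the libraries of a line summed, Smarca4 differed by -0.21 in Control and 0.064 in Mta123KO, and Smarcc1 by -0.20 and 0.087. The call of Smarca2 held under every alternative run, and that of Smarcd3 was lost with the libraries of a line summed (-1.22, adjusted p = 0.101). Smarca4 was not called with no filter on low counts (0.27, adjusted p = 0.0723), with lines summed (0.29, 0.309), with spike-in scaling (0.08, 0.841) or without the libraries numbered 1_1 (0.24, 0.133) or 1_2 (0.25, 0.144), and Smarcc1 with DESeq2 (0.29, 0.0523), with RLE factors (0.29, 0.0599), with no filter (0.29, 0.129), with lines summed (0.30, 0.40), with spike-in scaling (0.08, 0.832) or without those numbered 1_1 (0.29, 0.158), 1_2 (0.31, 0.125), 2_1 (0.35, 0.073) or 2_2 (0.30, 0.158).

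The paralogue ratios summarise these levels library by library. On the log2 scale of RPKM, Smarca4 over Smarca2 stood at 7.62 ± 0.17 (SD, n = 4) in Control labelled 2iL, 5.11 ± 0.20 in Control labelled 48 h, 3.17 ± 0.36 in Mta123KO labelled 2iL and 2.76 ± 0.15 in Mta123KO labelled 48 h. Smarcd1 over Smarcd3 stood at 4.18 ± 0.13, 2.23 ± 0.16, 2.80 ± 0.63 and 2.27 ± 0.19 in the same order. Smarcd1 over Smarcd2 stood at 1.35 ± 0.09, 0.60 ± 0.23, 0.80 ± 0.38 and 0.55 ± 0.27 in that order, and at -0.26 ± 0.09 in Mta3_flox. Smarcc1 over Smarcc2 went from 1.56 ± 0.03 and 1.47 ± 0.16 in Control to 1.01 ± 0.26 and 0.89 ± 0.26 in Mta123KO. Arid1a over Arid1b ran the other way between genotypes, at 2.25 ± 0.06 and 1.40 ± 0.11 in Control and 3.09 ± 0.57 and 2.04 ± 0.41 in Mta123KO. No test was made of these ratios.

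**Figure D4:**
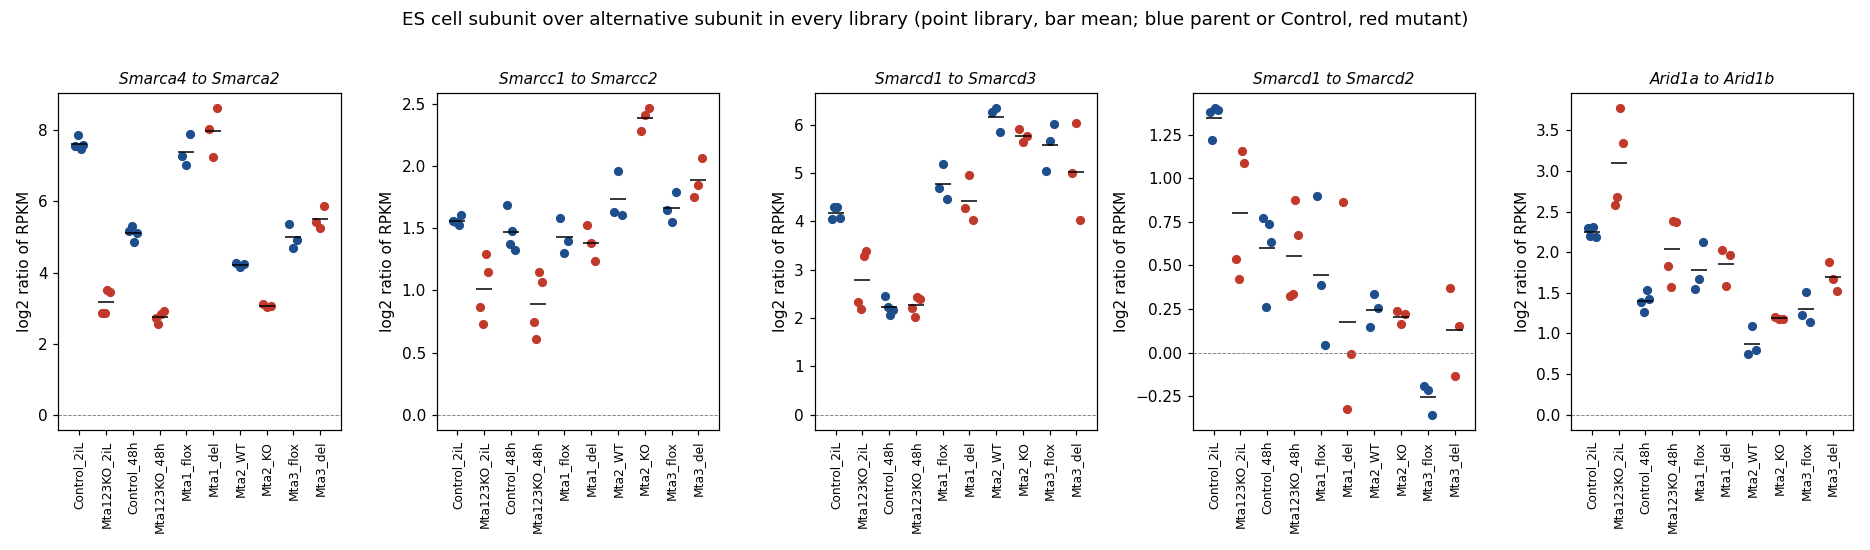
Log2 ratio of RPKM of an ES cell subunit over its alternative (vertical axes, separate scales) in each of the 34 libraries, blue for Control or parent and red for mutant, with the group mean as a bar. Smarca4 over Smarca2 has means of 7.62 in Control and 3.17 in Mta123KO labelled 2iL; the single-mutant libraries at the right were normalised separately.

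Among the single mutants, Mta2_KO was the only one in which the Smarca2 difference passed. In Mta2_KO 4 of the 10 genes rose and 1 fell, against 23.5% and 24.3% of 15602 genes and 47.8% in either direction, and 5 of the 10 had groups that did not overlap, against 56.8% of all genes. The members' median was 0.088, with 0.0015 over all genes. Smarca2 counted 34.4, 38.3 and 30.0 CPM in Mta2_WT and 69.9, 69.3 and 73.9 CPM in Mta2_KO, an increase of 1.04 ± 0.08 on the log2 scale (adjusted p = 7.34e-06). Smarcc2 fell by 0.62 ± 0.09 (adjusted p = 0.000394), from 43.5, 39.8 and 36.1 CPM to 28.9, 24.4 and 24.5 CPM.

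The SMARCD genes moved less in Mta2_KO. Smarcd2 rose by 0.25 ± 0.06 (adjusted p = 0.00788), from 41.2 to 47.3 CPM to 52.7 to 54.6 CPM, and Smarcd1 by 0.21 ± 0.07 (adjusted p = 0.0315), from 55.1 to 66.5 CPM to 68.6 to 71.9 CPM. Smarcd3, at 0.978 to 1.21 CPM in Mta2_WT and 1.52 to 1.75 CPM in Mta2_KO, rose by 0.59 ± 0.19 (adjusted p = 0.0307). That call was lost with DESeq2 (adjusted p = 0.154), with no filter on low counts (0.0549) and without replicate 1 (0.141), 2 (0.169) or 3 (0.0653). Without replicate 1, Smarcd1 (0.17, adjusted p = 0.255) and Smarcd2 (0.27, 0.0521) missed the threshold, as did Smarcd1 without replicate 3 (0.16, 0.113), while Arid1a passed without replicate 2 (0.47, 0.000897) and Smarca4 without replicate 3 (-0.20, 0.0266). Replicate 3 of Mta2_WT differed from replicates 1 and 2 in their counts by 187 and 215 (chi-square over its degrees of freedom), where those 2 differed by 8.63, and replicate 2 of Mta2_KO from 1 and 3 by 77.1 and 74.7, where those differed by 4.41. In one fit of all 18 libraries, which share an estimate of the spread, Smarca2 and Smarcc2 alone were called among the 10. The 6 naive genes summed to 4648 to 4941 CPM in Mta2_WT and to 3404 to 3525 CPM in Mta2_KO, the trophoblast genes to 43.1 to 44.4 CPM and to 11.6 to 15 CPM, and the primitive endoderm genes to 7.02 to 7.38 CPM and to 3.74 to 4.997 CPM, with 5 of 6, 3 of 4 and 3 of 4 lower and 1 naive and 1 trophoblast gene higher. Their part in these differences was not tested.

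In Mta3_del, 3 of the 10 genes rose and 0 fell, against 8.32% and 7.84% of 15522 genes and 16.2% in either direction. The groups did not overlap for 4 of the 10 (41.3% of all genes), and the members' median was 0.21, with -0.014 over all genes. Smarcd1 counted 83.0, 70.4 and 93.9 CPM in Mta3_flox and 139, 96.2 and 142 CPM in Mta3_del (0.55 ± 0.15 higher, adjusted p = 0.0435). Smarcb1 rose by 0.49 ± 0.11 (adjusted p = 0.0251), from 62.2 to 71.3 CPM to 83.9 to 107 CPM, and Arid1a by 0.43 ± 0.09 (adjusted p = 0.0215), from 169 to 195 CPM to 247 to 266 CPM. All 3 calls were lost without replicate 1 (adjusted p = 0.168 for Smarcb1, 0.206 for Arid1a, 0.261 for Smarcd1) and without replicate 3 (0.153, 0.112 and 0.146), when 2 genes in all were called, and Arid1a was not called in one fit of all 18 libraries (0.48, 0.0865). The naive genes summed to 3028 to 3755 CPM in Mta3_flox and to 3816 to 4563 CPM in Mta3_del, the trophoblast genes to 3.78 to 9.63 CPM and to 11.9 to 25.5 CPM, and the primitive endoderm genes to 11.3 to 13.1 CPM and to 6.40 to 8.91 CPM, of which 1 primitive endoderm gene was called, as lower, and 1 epiblast gene was called higher. Their part was not tested. Smarcd3 counted 3.19, 1.78 and 1.83 CPM in Mta3_flox and 5.55, 1.86 and 11.1 CPM in Mta3_del, a log2 difference of 1.39 ± 0.56 (adjusted p = 0.115), which passed without replicate 2 (1.68, 0.0322) and with DESeq2 (1.43, 0.0247). Smarca2 was at 21.4 to 31.9 CPM in Mta3_flox and 19.8 to 25.6 CPM in Mta3_del (adjusted p = 0.168).

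In Mta1_del no member passed. Neither did any of the 14561 genes tested by edgeR, 50 of them at an unadjusted p under 0.05, and DESeq2 called 0 as well. These libraries deviated together by number. With the number as a block, edgeR called 0 of 14986 genes, and 507 had an unadjusted p under 0.05. The deleted gene Mta1 did not pass either, so the lack of calls does not show that the members were unchanged. The members' log2 differences ran from -0.44 ± 0.43 for Smarca2 to 0.35 ± 0.41 for Smarcd3, with a median of 0.043. Smarca2 counted 6.61, 6.63 and 3.86 CPM in Mta1_flox and 4.08, 6.22 and 2.32 CPM in Mta1_del, ranges that overlapped. The groups did not overlap for 0 of the 10, against 2.41% of all genes.

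**Figure D5:**
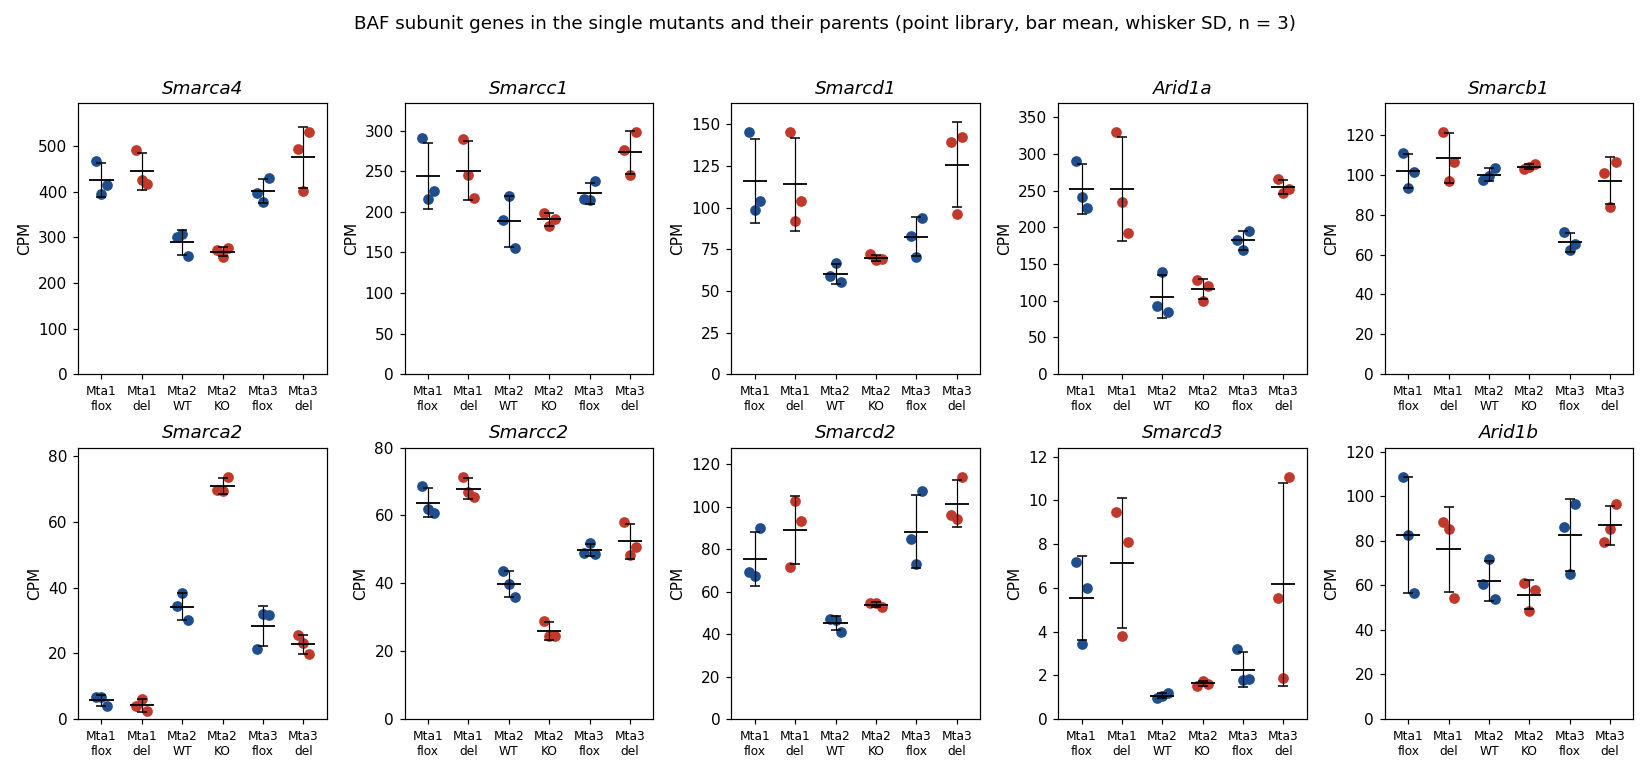
Level of each of the 10 genes in CPM (vertical axis, from 0) in the single mutants (red) and their parents (blue), with the mean as a bar and the SD as a whisker (n = 3). Smarca2 lies at 3.86 to 6.63 CPM in Mta1_flox, 21.4 to 31.9 CPM in Mta3_flox and 30.0 to 38.3 CPM in Mta2_WT.

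The parental lines themselves differed in Smarca2, although all carried the 2i+LIF label. It counted 3.86 to 6.63 CPM in Mta1_flox, 21.4 to 31.9 CPM in Mta3_flox and 30.0 to 38.3 CPM in Mta2_WT, with Mta3_flox and Mta2_WT overlapping. These parents were not compared by a test. Smarcd3 was in turn lowest in Mta2_WT (0.978 to 1.21 CPM), where Smarca2 was highest, and at 3.43 to 7.18 CPM in Mta1_flox. The log2 RPKM ratio of Smarca4 over Smarca2 was accordingly 7.40 ± 0.44 (SD, n = 3) in Mta1_flox, 4.99 ± 0.33 in Mta3_flox and 4.22 ± 0.06 in Mta2_WT. The 6 naive genes summed to 3028 to 5610 CPM over the parental libraries.

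Of 18 further BAF, PBAF and ncBAF subunit genes listed beside the members, 17 were tested in each comparison. In Mta123KO 5 of the 17 rose and 5 fell among libraries labelled 2iL, against 27.1% and 24.2% of all genes. Under the 48 h label 3 rose and 4 fell, against 26.6% and 23.4%. Between the culture labels 5 were higher and 5 lower in Control (29.5% and 29.0% of all genes). In Mta123KO 1 was higher and 0 lower, against 22.4% of all genes in either direction. In the single mutants 6 rose and 5 fell in Mta2_KO (23.5% and 24.3% of all genes), 1 rose in Mta3_del (8.32% of all genes), and none passed in Mta1_del. Bcl7a, a shared small subunit, was the gene with a log2 difference beyond 1 and a mean of at least 1 CPM. It counted 21.2, 22.3, 20.9 and 19.5 CPM in Control labelled 2iL and 7.77, 7.18, 11.7 and 8.26 CPM in Mta123KO (-1.25 ± 0.15, adjusted p = 0.000182), and fell by 1.2 ± 0.10 under the 48 h label (adjusted p = 2.21e-05). Neither pair of groups overlapped. Actl6b, the neuronal actin-like subunit, was at most 0.104 CPM in this set and was not tested.

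The genes whose log2 CPM followed Smarca2 most closely over the 16 Control and Mta123KO libraries were Tgm1 (Pearson r = 0.994), Klk10 (0.994) and Sdc4 (0.991), out of 17068 genes with a mean of at least 1 CPM. Tfeb (0.989) and Mppe1 (0.979) were among those closest to Smarcd3, and those closest to Smarca4 were Gm42836 (0.954), Sbf1 (0.953) and Gpr179 (0.952). Among the members, Smarca2 had an r of -0.90 with Smarca4, -0.92 with Smarcc1 and 0.78 with Smarcd3. The 16 libraries fall into 4 groups and share lines, so these values describe the libraries and carry no test.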

How the data were processed

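The authors deposited raw counts for each gene and library. Reads had been trimmed with Trim Galore, aligned to GRCm38 (mm10) with TopHat2 and assigned to Ensembl genes with featureCounts. How reads mapping to several places and the strand were treated is not given in the sources used here, which can affect overlapping genes. Symbols, positions and exon lengths came from GENCODE vM21 by Ensembl identifier (48349 of 48709 and 21852 of 22018 matched).

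Tests were run over all genes in edgeR 4.0.16 under R 4.3.3 (TMM, filterByExpr, quasi-likelihood F test), a gene being called at an adjusted p under 0.05, with only the groups compared in each fit. CPM used TMM over each set, and the sets were normalised separately. Alternatives were DESeq2 1.42.0, RLE factors, no filter, the replicate block, summed lines, ERCC scaling, one fit of a set, and leaving out each replicate number. The procedure was tested on simulated counts. All 10 members, and further subunits past a log2 difference of 1 with a mean of at least 1 CPM, were named. The members and lists were chosen with earlier results of these data known.

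Same-numbered libraries deviated together (correlation of deviations 0.43 to 0.70 for Mta1, 0.27 to 0.34 between culture labels in Control and 0.55 to 0.59 in Mta123KO), the numbers coming from the labels. No 2 libraries of a group agreed within counting noise. The neural marker list and a gene of the pattern search are not reported here.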

Additional observations from a re-analysis of the deposited data

Results flagged for a closer look

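In 4 of the 10 genes the difference between culture labels differed between genotypes by the test of the interaction (edgeR's quasi-likelihood test, adjusted over all genes). Of all 22973 genes tested, 23.1% passed. The log2 interaction was -1.83 for Smarca2 and -1.22 for Smarcd3, 0.29 for Smarca4 and 0.31 for Smarcc1. The last 2 lost their calls under several alternatives given with the result, and Smarcd3 lost its call with the libraries of a line summed (-1.22, adjusted p = 0.101).

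A library stood far from the other 3 of its group, by Dixon's criterion, in 2 of 40 groups tested. Smarcb1 counted 63.9 CPM in 1 Mta123KO library labelled 48 h, where the other 3 lay between 60.5 and 61.0 CPM, and Arid1b counted 50.2 CPM in 1 Control library labelled 2iL, where the other 3 lay between 44.4 and 45.3 CPM. Chance alone flags about 5% of groups.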

How the results depend on the processing

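Over 780 refitted values of the members, 662 kept their direction and side of the threshold, 67 lost a call, 13 gained one and 38 changed sign. With the libraries of a line summed, genes and members called were 3758 of 24467 and 4 for Mta123KO labelled 2iL and 4085 of 23899 and 2 under the 48 h label. They were 0 of 24445 and 0 between labels in Mta123KO, and 710 of 25816 and 1 for the interaction. Spike-in scaling gave 7788 of 21079 genes and 3 members for Mta123KO labelled 48 h, and 9657 of 21240 genes and 4 members between labels in Control. It gave 2795 of 21505 genes and 0 members between labels in Mta123KO. For the interaction it gave 3364 of 22973 genes and 2 members, and moved the all-gene median by -0.22. One fit of a set gave 2622 of 16271 genes and 2 members for Mta2_KO, and 7059 of 22973 genes and 4 members between labels in Mta123KO. No filter gave 4637 of 39056 genes and 2 members for the interaction. Leaving out a replicate number gave 5104 to 6706 genes (15637 to 15831 tested) and 2 to 5 members for Mta2_KO. For Mta3_del it gave 2 to 3691 genes (15288 to 16132 tested) and 0 to 4 members. It gave 8009 to 9186 genes (21178 to 21325 tested) and 3 to 6 members for Mta123KO labelled 48 h. Between labels in Mta123KO it gave 2518 to 3126 genes (21574 to 21673 tested) and 0 to 1 members. For the interaction it gave 2975 to 3806 genes (23025 to 23133 tested) and 2 to 3 members. The causes were not tested.

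With the replicate number as a block, 9534 of 23125 genes and 6 members were called between labels in Mta123KO. The block changed no member's call in Mta1_del or between labels in Control. In the interaction 5917 of 23558 genes and 5 members passed with the block, and Smarcc2 gained a call (0.34, adjusted p = 0.0381). That block also joined Control and Mta123KO libraries, which shared only a number. Where the compared libraries shared only a number, the block gave 6843 of 16003 genes and 4 members for Mta2_KO (correlation of deviations -0.19 to 0.31). It gave 2624 of 16224 and 3 for Mta3_del (-0.13 to 0.34), 10352 of 23279 and 8 for Mta123KO labelled 2iL (-0.25 to -0.035) and 10149 of 22694 and 6 under the 48 h label (-0.10 to 0.031). Best matches to the own number were 1 of 3, 1 of 3, 0 of 4 and 0 of 4.

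The sign changes were all of members that were not called, given next as log2 fold changes. In Mta123KO labelled 2iL, Smarcc2 came to -0.0060 with DESeq2, -0.020 with no filter, -0.0029 with the replicate block, -0.0041 with lines summed, -0.0089 in one fit and -0.045 to 0.043 leaving out a number. Under the 48 h label, Smarcd1 came to -0.0031 with DESeq2, -0.011 with no filter, -0.017 with lines summed, -0.19 with spike-ins, -0.0020 in one fit and -0.043 to 0.082 leaving out a number, Smarcd2 to -0.10 with spike-ins and -0.0081 to 0.088 leaving out a number, and Smarcd3 to -0.13 to 0.024. Between labels in Control, spike-ins gave Smarcb1 0.094 and Smarcc2 0.047, and in the interaction Arid1a -0.081 and Smarcb1 -0.064. Between labels in Mta123KO, leaving out a number gave -0.013 to 0.098 for Smarca4 and -0.030 to 0.10 for Smarcb1. Arid1a in Mta1_del came to 0.0035 with no filter, 0.00057 in one fit and -0.14 to 0.077 leaving out a replicate, and Smarcc1 to -0.030 to 0.072. In Mta2_KO, Smarcc1 came to -0.0054 with no filter and -0.11 to 0.16 leaving out a replicate, Arid1a to -0.041 to 0.47 and Arid1b to -0.28 to 0.045, and in Mta3_del Smarcc2 came to -0.065 to 0.083 and Arid1b to -0.13 to 0.13. There were at most 2 lines per genotype in the Mta123KO set.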
